A study of Mus musculus with 96 samples.

Results

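The genes described here mark cells that become red blood cells. They were listed by name, and 7 of the 8 listed genes were found among the 41575 genes of the count table. These were *Alas2*, *Klf1*, *Hemgn*, *Slc4a1*, *Epor*, *Rhag* and *Ermap*; the eighth was not analysed here. Bulk RNA was sequenced from 16 whole tissues of 3-week-old wild-type mice and of 3-week-old Scx-/- mice, which lack the tendon and connective tissue transcription factor *Scx*. The tissues were spleen, bone, cartilage, muscle and adipose; lung, heart and vascular; liver, kidney and bladder; stomach, intestine and rectum; and cortex and hippocampus. Each group of tissue and genotype had 3 libraries, which gave 96 in all.

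Red cells are made from progenitors in the bone marrow and, in young mice, also in the red pulp of the spleen. Erythropoietin binds its receptor *Epor* on these progenitors, and transcription factors such as *Gata1* and *Klf1* then switch on globin, heme and membrane genes while the cells divide. The nucleus is expelled at the end. The reticulocyte that remains can make no new RNA and carries what it holds into the blood, where it matures into an erythrocyte.

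Library totals ran from 11244 to 1658192 counts with a median of 251640, and 8 libraries held fewer than 50000 counts. Nothing in the labels tells whether the 3 libraries of a group came from separate mice, so p-values measure the spread between these libraries. *Scx* itself had 80 counts in 12 of the 48 wild-type libraries and 9 counts in 1 of the 48 libraries labelled Scx-/-, replicate 1 of cartilage. It had no count in spleen in either genotype, so it checks no label there. The labels of 5 tissues were checked against markers, those of lung, cartilage and vascular chosen after seeing the data. The osteoblast gene *Col1a1* was at 51130 ± 5794 CPM in wild-type bone (SD, n = 3) and at 305 ± 124 in wild-type spleen, and the B cell gene *Cd79b* was at 798 ± 327 CPM in wild-type spleen and at 0 in wild-type bone. CPM here scales each count to the library total. Lung had the surfactant gene *Sftpc* at 17462 to 23262 CPM, cartilage the collagen gene *Col2a1* at 1369 to 10242, and vascular the smooth muscle gene *Acta2* at 2334 to 6549. Vascular also held brown fat RNA, with *Ucp1* at 939 to 7741 CPM against 0 in all lung libraries, and the study left this tissue out of part of its own analysis. Skeletal muscle *Acta1* was at 51956 to 61950 CPM in cartilage and 7489 to 36573 in bone. Osteoblast genes summed to 7290, 38195 and 35576 CPM in wild-type cartilage and 12041, 14487 and 15057 in Scx-/- cartilage, against 40736 to 60088 in bone. The part of these other cells in the member levels was not tested. In bulk tissue, fewer cells of a type and less RNA per cell cannot be told apart.

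Sequence upstream of the genes was read from the RefSeq promoter table of build GRCm38.p6. It holds an entry for 6 of the 7 genes; none was found for *Slc4a1*. Each 250-base window before the start held 1 word of the kind that GATA factors bind (AGATAA, its form AGATAG ending in G, its form TGATAA starting with T, or the form TGATAG with both changes, on either strand), against 26.5% of 32851 such windows in the table. A CACCC-type word, the kind bound by factors of the *Klf1* family, was searched as CCNCNCCC on either strand. It was in the windows of 3 genes, *Alas2*, *Hemgn* and *Epor*, against 45.9% of all windows. Many of its matches overlapped one another, and in *Hemgn* they fell in a run of G. A match describes the letters only. Below are 120 bases of 4 of the windows, 5′ to 3′ on the strand of the gene, each ending at the base before its first annotated exon. They are shown as examples of a transcription factor (*Klf1*), surface proteins (*Rhag* and *Ermap*) and a heme enzyme (*Alas2*). Capitals mark the GATA word, which here lies on the other strand and reads TTATCT in *Alas2* and TTATCA in the other 3.
Alas2, chrX:150547255-150547374, plus strand: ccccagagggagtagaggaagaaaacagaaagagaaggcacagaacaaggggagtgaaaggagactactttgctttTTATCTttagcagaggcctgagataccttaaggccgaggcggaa
Klf1, chr8:84901808-84901927, plus strand: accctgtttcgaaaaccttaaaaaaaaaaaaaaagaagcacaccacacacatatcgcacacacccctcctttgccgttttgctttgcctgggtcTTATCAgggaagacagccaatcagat
Rhag, chr17:40811006-40811125, plus strand: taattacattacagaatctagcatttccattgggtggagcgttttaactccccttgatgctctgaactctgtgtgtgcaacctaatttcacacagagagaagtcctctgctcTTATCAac
Ermap, chr4:119190012-119190131, minus strand: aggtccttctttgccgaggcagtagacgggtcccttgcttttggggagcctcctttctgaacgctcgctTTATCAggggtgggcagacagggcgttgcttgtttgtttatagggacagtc
The word began 86 bases before the RefSeq start in *Alas2*, 80 in *Klf1*, 67 in *Ermap*, 54 in *Epor*, 31 in *Rhag* and 13 in *Hemgn*. The word of *Hemgn* lies within an annotated exon and is not printed.

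In the GENCODE M21 annotation of mm10, *Alas2* spans chrX:150547375-150570638 on the plus strand, *Klf1* chr8:84901928-84905291 (plus), *Hemgn* chr4:46393989-46413506 (minus), *Slc4a1* chr11:102348824-102366203 (minus), *Epor* chr9:21958897-21963506 (minus), *Rhag* chr17:40811126-40840754 (plus) and *Ermap* chr4:119175457-119190011 (minus). All are protein coding. *Alas2* overlaps *Apex2* on the opposite strand, which had 269 counts in the 96 libraries against 8660 for *Alas2*, and a microRNA gene. Whether counting used strand is not given in the sources used here, so reads from the pair cannot be told apart. No other member overlaps a gene.

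The counts of 5 of the 7 genes lay mainly in spleen and bone, while *Epor* had fewer there and *Alas2* was spread over nearly every tissue. Spleen and bone together held 94.3% of all *Hemgn* counts, 91.4% of *Klf1*, 88.7% of *Rhag*, 85.0% of *Ermap*, 83.2% of *Slc4a1* and 58.0% of *Epor*, though these 2 tissues gave only 12 of the 96 libraries. They held 52.0% of the *Alas2* counts. In the other 84 libraries, *Alas2* was detected in 74 and *Slc4a1* in 53, but *Klf1* in 20, *Epor* in 18, *Hemgn* in 16, *Ermap* in 14 and *Rhag* in 12.

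*Klf1* encodes the zinc finger factor that drives the erythroid program. Its level in spleen was 413, 617 and 859 CPM in the wild-type libraries and 1064, 64.3 and 88.1 in the Scx-/- libraries, a mean of 518 ± 407 CPM (SD, n = 6). In bone it was 156, 0 and 21.2 CPM in wild-type and 200, 217 and 473 in Scx-/- mice, a mean of 178 ± 171. The range of spleen and that of bone overlapped, and the spleen values fell apart into 4 high and 2 low libraries. The tissue next in order was intestine at 33.3 ± 81.6 CPM, all of it from 6 counts in 1 Scx-/- library. *Klf1* had no count in cortex, heart, kidney, muscle or rectum.

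*Hemgn*, a nuclear protein of blood progenitors, was the member with the steadiest level in bone. It was at 191, 284 and 424 CPM in wild-type and 382, 451 and 142 in Scx-/- bone, a mean of 312 ± 127 (SD, n = 6). In spleen it was at 610, 541 and 1365 CPM in wild-type and 1235, 21.4 and 242 in Scx-/- mice, a mean of 669 ± 534. The same 2 Scx-/- spleens that were low in *Klf1* were low here. After bone came intestine at 74.3 ± 176, again mostly from the Scx-/- library that held the *Klf1* counts, where *Hemgn* had 13. Cartilage was at 18.3 ± 27.2.

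*Epor*, the receptor itself, had the fewest counts, 219 in all 96 libraries. In spleen it was at 42.8, 51.7 and 227 CPM in wild-type and 128, 26.8 and 5.51 in Scx-/- mice. In bone it had 13 counts in 3 of 6 libraries, or 14.9 ± 25.1 CPM, which overlapped spleen, cartilage (9.40 ± 13.8) and lung (7.98 ± 12.8). It was also seen in the brain, with 41 counts in cortex (6.28 ± 6.12 CPM, SD, n = 6). It had no count in adipose, bladder, heart, intestine, muscle, rectum or stomach. Its ligand *Epo* had no count in any library, which in kidney, its main source after birth, limits it to under 3 counts among 3583174.

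*Slc4a1* (band 3) exchanges chloride for bicarbonate in the red cell membrane and anchors the skeleton beneath it. In spleen it was at 2216, 1783 and 3536 CPM in wild-type and 4993, 943 and 1145 in Scx-/- mice. In bone it was at 433, 335 and 530 CPM in wild-type and 1363, 950 and 852 in Scx-/- mice. Cartilage followed at 228 ± 170 CPM (SD, n = 6), then lung at 85.4 ± 84.7 and kidney at 82.6 ± 41.2, and each of these overlapped its neighbour in the order. Kidney was the tissue where *Slc4a1* stood most apart from the other members. A shorter form of this exchanger is made by acid-secreting cells of the collecting duct. All 6 kidney libraries had *Slc4a1* counts, 286 together, at 132, 20.5 and 50.6 CPM in wild-type and 110, 79.8 and 103 in Scx-/- mice, while *Klf1*, *Hemgn* and *Rhag* had no kidney count, which limits each to under 3 counts among 3583174. *Alas2* had 125 counts in 5 of the 6 kidney libraries, *Epor* 9 in 2 and *Ermap* 2 in 1.

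*Rhag* and *Ermap* encode red cell surface proteins, *Rhag* the partner that carries Rh proteins to the membrane and *Ermap* the carrier of the Scianna blood group. *Rhag* was the only member whose mean was higher in bone, 189 ± 181 CPM against 185 ± 129 in spleen (SD, n = 6), a difference far within the spread. Its bone values were 0, 0 and 467 CPM in wild-type and 291, 137 and 237 in Scx-/- mice, and its spleen values 178, 145 and 348 against 329, 64.3 and 44.0. *Ermap* was at 161, 479 and 754 CPM in wild-type and 718, 64.3 and 49.6 in Scx-/- spleens, and at 111 ± 122 in bone, where 3 of the 6 libraries had none. It was also seen in rectum, with 25 counts in 3 libraries (23.9 ± 32.5 CPM), where no other of the 5 rarer genes had a count.

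*Alas2* encodes the enzyme that makes the first compound of heme synthesis in red cells. Its level was 2612, 1711 and 1649 CPM in wild-type spleen and 3574, 4424 and 1591 in Scx-/- spleen, and the 2 spleens low in *Klf1* did not stand apart here. Lung came next at 1093 ± 484 CPM (SD, n = 6), then vascular at 846 ± 503, bone at 575 ± 554, cartilage at 281 ± 294 and heart at 207 ± 112. The lowest were cortex at 23.1 ± 13.1 and intestine at 17.4 ± 25.1. Neighbours in this order overlapped at every step.

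**Figure D1:**
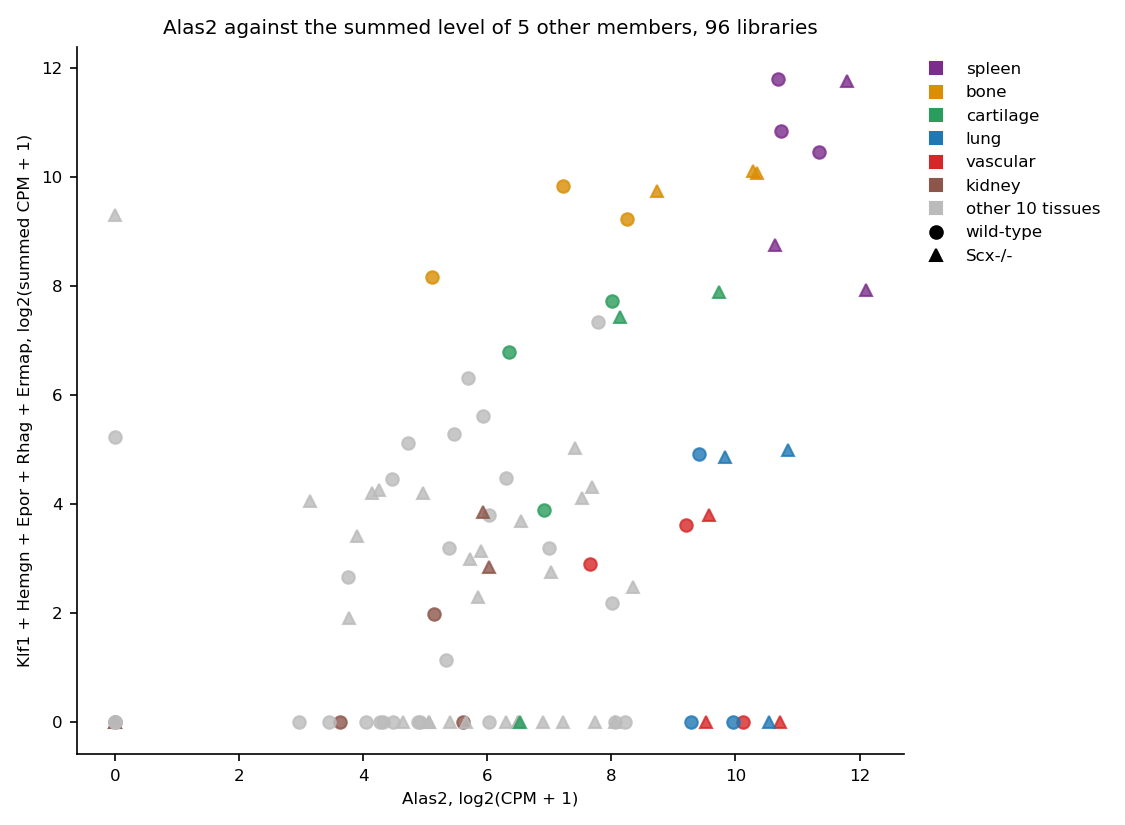
*Alas2* against the summed level of *Klf1*, *Hemgn*, *Epor*, *Rhag* and *Ermap*, both as log2(CPM + 1), with each point 1 library. Lung and vascular libraries hold *Alas2* at 200 to 1851 CPM with the other 5 genes at 0 to 30.8 CPM.

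The make-up of the erythroid counts differed between the tissues. Of 10553 member counts in the 6 spleen libraries, 37.7% were *Alas2* (95% Clopper-Pearson interval 36.8 to 38.6), 35.8% *Slc4a1* and 26.5% (25.7 to 27.4) the other 5 genes together. Bone was close to this, with 31.4%, 34.7% and 34.0% (31.7 to 36.3) of 1664 counts, and cartilage held 45.2%, 35.1% and 19.6% (17.2 to 22.3) of 957. In lung the same shares were 93.6%, 4.52% and 1.85% (1.13 to 2.84) of 1083 counts, and in vascular 95.6%, 3.69% and 0.714% (0.263 to 1.55) of 840. Heart had 1.38% and muscle 0% for the 5 genes, which allows up to 1.09% of 336 counts. The highest shares of the 5 genes were in tissues with few counts, 44.6% (31.3 to 58.5) of 56 in rectum and 43.1% (30.2 to 56.8) of 58 in intestine. In rectum all 25 counts of the 5 genes were *Ermap*, 17 of them in 1 library, and in intestine 1 library gave 19 of the 25 counts. Cortex had 18.9% of 227 and hippocampus 15.6% of 128, and the other 5 tissues 2.61 to 10.6%. In cortex *Epor* gave 41 of the 43 counts of the 5 genes, and 1 library held 24 of the 43. The 5 were grouped after their values were seen, and intervals cover counting error only. Shares describe counts and not levels per gene length.

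Per library the split held in lung and vascular and varied in spleen and cartilage. The 5 genes took 0 to 4.03% of the member counts in the 6 lung libraries and 0 to 2.94% in the 6 vascular libraries, against 29.8 to 57.3% in bone. In spleen they took 22.5, 34.4 and 40.7% in the wild-type libraries, 28.9% in Scx-/- spleen 1 and 4.30 and 13.6% in the other 2. In cartilage they took 4.23, 31.0 and 33.1% in the wild-type and 0, 21.0 and 14.9% in the Scx-/- libraries, so Scx-/- cartilage 1, with 22 member counts, lay within the lung and vascular range and wild-type cartilage 1 just above it. Every spleen and bone library lay above every lung and vascular library.

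**Figure D2:**
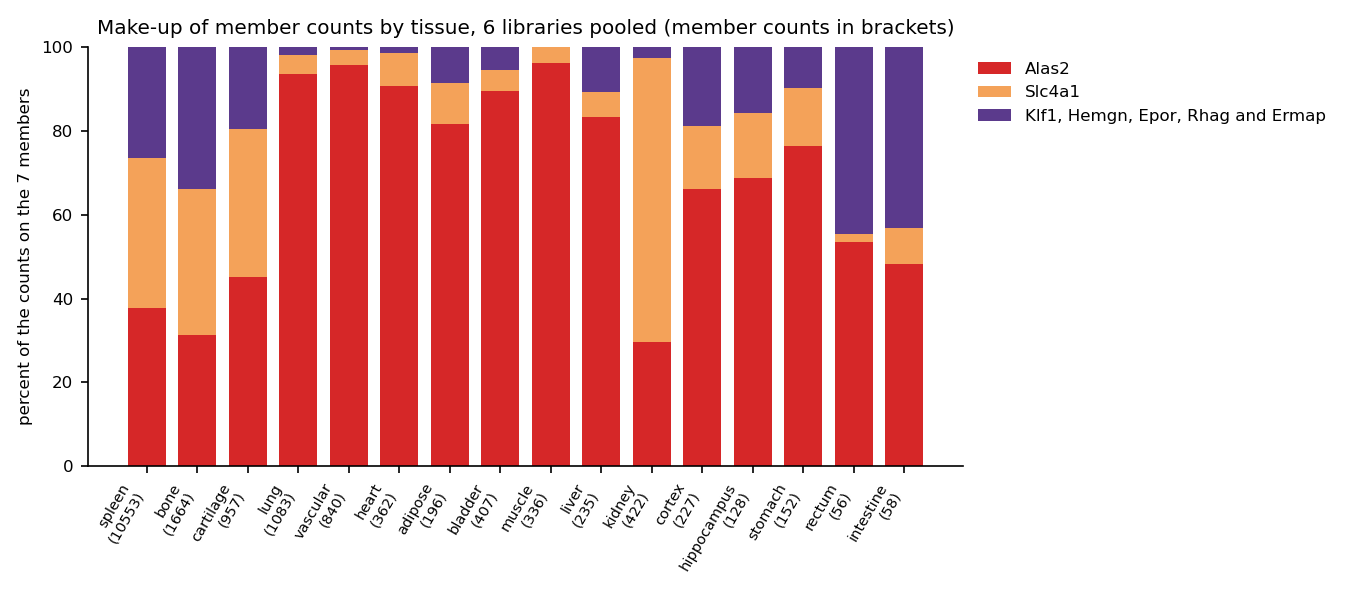
Share of the member counts of each tissue, in percent, taken by *Alas2*, by *Slc4a1* and by the other 5 genes, pooled over the 6 libraries of the tissue. Spleen, bone and cartilage hold 19.6 to 34.0% for the 5 genes, and lung, vascular, heart and muscle at most 1.85%. Rectum and intestine, with 56 and 58 counts, hold 44.6 and 43.1%, in rectum all from *Ermap*.

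Globin RNA, which reticulocytes in blood keep, was set beside these values. Globins took 13.1 to 31.9% of all counts in spleen, 2.04 to 13.3% in vascular, 2.81 to 11.2% in lung and 1.25 to 7.96% in bone. Per 1000 globin CPM, *Alas2* had a median of 11.2 CPM in spleen, 11.2 in vascular, 16.1 in lung, 14.1 in cartilage and 9.70 in bone. The genotypes did not overlap in this ratio in 3 of the 16 tissues, higher in Scx-/- mice in bone and stomach and lower in cortex. In bone it was 7.41, 2.67 and 8.06 in wild-type and 17.1, 16.3 and 11.3 in Scx-/- libraries, in stomach 1.03, 0 and 0 against 13.7, 5.94 and 13.3, and in cortex 9.51, 8.40 and 7.06 against 3.00, 4.29 and 6.98. The wild-type stomach values came from 3 *Alas2* counts in 1 library, and cortex was apart only by 7.06 against 6.98. The same ratio was not taken for other genes. Of single genes with at least 100 counts in a tissue, 9.21% (cartilage) to 15.5% (adipose) did not overlap between genotypes in CPM. The 5 rarer genes had 8.58 CPM per 1000 globin CPM in spleen and 18.9 in bone but 0.138 in lung and 0.0713 in vascular. Over the means of the 16 tissues, *Alas2* had a Pearson r of 0.943 with the globin sum, and the other 6 genes 0.608 (*Ermap*) to 0.761 (*Slc4a1*). These are descriptions across tissues that differ in depth. The part that blood left in the organs has in the *Alas2* levels was not tested.

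The 2 sites of red cell formation were compared in 12 libraries, with genotype in the fit (edgeR quasi-likelihood test, Benjamini-Hochberg adjustment over 15424 genes). Of the 7 members, 3 were higher in spleen and none lower at an adjusted p under 0.05, against 4.77% of all genes called and 1.91% called higher. *Alas2* was higher by 2.80 ± 0.43 on the log2 scale (SE, adjusted p = 1.2e-08), *Slc4a1* by 2.02 ± 0.42 (adjusted p = 0.00011) and *Klf1* by 1.98 ± 0.62 (adjusted p = 0.035). *Hemgn* (1.19 ± 0.53, adjusted p = 0.19), *Ermap* (1.64 ± 0.65, 0.13) and *Epor* (2.45 ± 1.28, 0.29) were not called. *Rhag* differed by 0.22 ± 0.70 with an interval of -1.16 to 1.59, and turned below 0 under other scalings. The median of all genes was itself 0.63 toward spleen, and 0.50 on library totals. The *Klf1* call was lost in 12 of 20 alternatives.

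**Figure D3:**
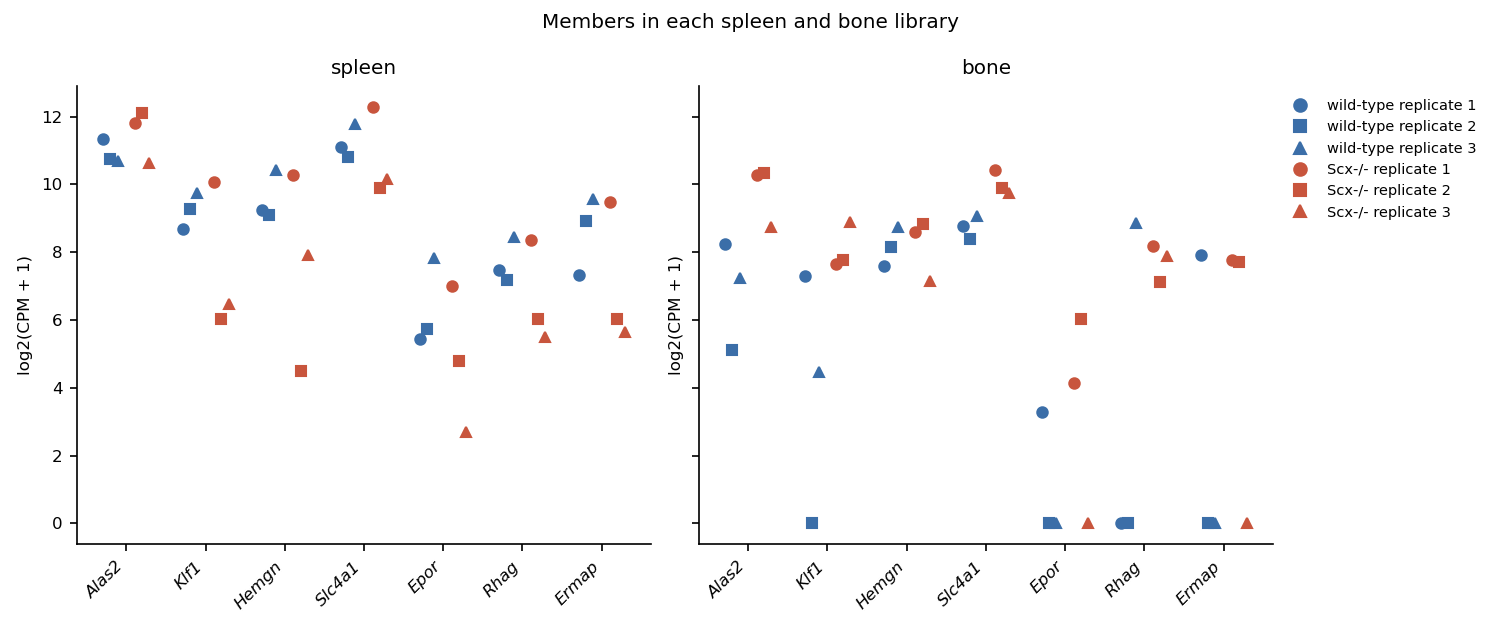
Level of the 7 members in each spleen and bone library on a log2(CPM + 1) axis, with wild-type and Scx-/- libraries in 2 colours. Scx-/- spleens 2 and 3 are the lowest 2 spleen libraries for 6 of the 7 members, all but *Alas2*.

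Scx-/- spleens 2 and 3 stood apart from the other 4. Their summed level of the 5 rarer genes was 241 and 429 CPM against 1404 to 3552 in the other 4 spleens, and their summed level of 12 proliferation genes was 943 and 1321 CPM against 2526 to 7088. Their globins were at 319022 and 212089 CPM, within or above the range of the other 4 (130724 to 302981). Their B cell genes, at 1559 and 2511 CPM, lay within or above the 780 to 2100 of the others. They were noticed for their low member levels, so leaving them out raises the spleen members by construction and is no test of them. Spleen against bone without both gave 5 members called, against 549 of 14988 genes (3.66%). The part that proliferation had in these levels was not tested.

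The wider erythroid lists, chosen by function, gave the following in spleen against bone. Of 11 tested erythroid enzymes and maturation genes, 7 were higher, with *Car2*, carbonic anhydrase, at 2.28 ± 0.44 and *Blvrb*, a heme breakdown enzyme, at 2.89 ± 0.55 on the log2 scale. Of 15 membrane and blood group genes, 6 were higher, and *Sptb*, a gene of the membrane skeleton, was lower at -4.67 ± 1.53. Of 14 heme and iron genes, 3 were higher, with the mitochondrial iron carrier *Slc25a37* at 1.58 ± 0.48 and *Fech*, which inserts the iron, at 1.79 ± 0.49. Of 10 transcription factors, 1 was higher, *Zfpm1*, the cofactor of *Gata1*, at 3.65 ± 0.88. Of 7 globins, 3 were higher and of 9 genes of erythropoietin signaling, none. The medians of these lists ran from 1.57 to 2.87 against 0.63 over all genes. Without Scx-/- spleens 2 and 3, the counts were 7 of 11, 9 of 15 with none lower, 7 of 14, 2 of 10, 2 of 7 and 0 of 9.

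Markers of other cells moved between the same tissues. All 8 osteoblast genes and all 6 skeletal muscle genes were lower in spleen, 5 of 8 B cell genes, 3 of 7 T cell genes, 4 of 9 red pulp macrophage genes, 3 of 12 proliferation genes and 2 of 5 tested hepatocyte genes higher. Of the neutrophil genes 1 of 10 was higher, of the megakaryocyte genes 1 of 5, and of the progenitor genes 0 of 7. Their part in the difference was not tested.

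Spleen and bone were each compared with liver, which forms red cells before birth. All 7 members were higher in spleen than in liver, against 17.2% of all genes called and 7.33% called higher, and 6 of 7 in bone, against 14% and 5.76%. *Slc4a1* was higher by 8.15 ± 0.57 on the log2 scale in spleen and by 6.35 ± 0.65 in bone, and *Hemgn* by 8.04 ± 0.68 and 6.84 ± 0.92. *Rhag* and *Ermap* had no count in the 6 liver libraries. Against a floor of 3 counts over the whole group, *Rhag* was at least 183-fold higher in spleen and at least 186-fold in bone, and *Ermap* at least 346-fold and 165-fold. *Alas2* was higher by 4.39 ± 0.46 in spleen and by 1.78 ± 0.55 in bone, while *Epor* in bone (1.33 ± 1.72, adjusted p = 0.64) was not called. The median of all genes was 0.22 for spleen (0.99 on library totals) and -0.38 for bone (0.43 on library totals). The *Alas2* call in bone was lost without replicate 1 of wild-type or of Scx-/- bone or without any 1 of the 3 Scx-/- liver libraries, and also with the replicate number as a block (1.68, adjusted p = 0.13). In bone the *Klf1* call was lost without wild-type bone 1 (adjusted p = 0.061) and the *Ermap* call with DESeq2 (adjusted p = 0.053). The *Epor* call in spleen (3.87 ± 1.11) was lost without wild-type spleen 3 or Scx-/- spleen 1.

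Between genotypes, no member passed an adjusted p under 0.05 in any tissue. The edgeR test gave 0 of 83 pairs of member and tissue, against 0.0914% of all 219996 tests, and DESeq2 also gave 0. At an unadjusted p under 0.05 there were 8, against 4.01% of all tests. The study set its own thresholds on DESeq2 results, an unadjusted p under 0.05 with a change of over 1 on the log2 scale. Applied here to the edgeR test, they were passed by 7 pairs, against 3.71% of all tests. All 7 were higher in Scx-/- mice, against 1.85% of all tests passing in that direction, and 5 of the 7 were *Alas2*.

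In bone the libraries of the genotypes did not overlap for 3 of the 7 members, each higher in Scx-/- bone, while edgeR called 0% of 12344 genes there. Such a separation toward Scx-/- was found for 344 of the 12344 genes (2.79%), and for 67 of the 833 genes with at least 100 counts in bone (8.04%), a minimum chosen after seeing the data that all members but *Epor* reached. *Alas2* was at 303, 33.5 and 149 CPM in wild-type bone and at 1243, 1296 and 426 in Scx-/- bone, with no overlap. The log2 difference was 2.70 ± 0.70 (edgeR, adjusted p = 0.64). It passed the study's thresholds with any 1 library left out, at 2.19 to 3.70. Without wild-type bone 1 the adjusted p was 0.013, where 5 of 11669 genes were called (0.0428%), and without Scx-/- bone 3 it was 0.019, where 2 of 12120 were (0.0165%). *Slc4a1* was higher by 1.43 ± 0.62 (adjusted p = 0.64), with means of 433 ± 97.9 CPM in wild-type and 1055 ± 272 in Scx-/- bone (SD, n = 3), and its groups did not overlap either. It missed the study's thresholds in 2 of the 6 fits with 1 library left out, without wild-type bone 2 (edgeR, unadjusted p = 0.059) and without Scx-/- bone 1 (0.15). *Klf1* also did not overlap, at 0 to 156 against 200 to 473 CPM, with a log2 difference of 2.09 ± 1.27 (adjusted p = 0.64). *Hemgn*, at 0.34 ± 0.88 with an interval of -1.38 to 2.06, *Rhag* at 0.71 ± 1.17, *Ermap* at 0.89 ± 1.43 and *Epor* at 2.69 ± 2.62 overlapped. Of all genes in bone, 437 had an unadjusted p under 0.05 and DESeq2 called 1.

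Of the other erythroid lists, 5 lay mostly above 0 in bone, without a single call. Of the transcription factors 10 of 10 had a log2 difference above 0, of the membrane genes 11 of 15, of the heme and iron genes 12 of 14, of the enzymes 9 of 10 and of the erythropoietin signaling genes 5 of 7. Their medians were 1.41, 1.70, 1.47, 2.12 and 2.52 against 0.08 over all genes. The summed levels of the genotypes overlapped for all of these but the enzymes. Scx-/- bone 3 lay below wild-type bone 1 for transcription factors (237 against 607 CPM), membrane genes (899 against 971) and heme and iron genes (1088 against 1716). Erythropoietin signaling genes were at 78.0, 218 and 424 CPM in wild-type and 166, 161 and 828 in Scx-/- bone. *Blvrb* had means of 61.7 and 358 CPM in wild-type and Scx-/- bone, *Car2* 334 and 907, and *Fech* 276 and 419. Of the globins 3 of 6 lay above 0, and their sum ran from 12516 to 40965 CPM in wild-type and from 37590 to 79649 in Scx-/- bone. Skeletal muscle genes, 6 of 6 above 0, ran from 19971 to 58497 against 39865 to 80999 CPM, proliferation genes from 485 to 1103 against 686 to 1811, and neutrophil genes, 8 of 9 above 0, from 1379 to 5825 against 3809 to 6830. Their part in the difference was not tested. The bone libraries held 42272 to 240564 counts, so a gene at 10 CPM was under 3 counts in each of them.

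In spleen the genotypes overlapped for every member and none was called, against 1 of 13894 genes (0.0072%). *Alas2* differed by 0.91 ± 0.42 on the log2 scale (edgeR, adjusted p = 0.79) and *Slc4a1* by 0.13 ± 0.42. *Klf1* (-0.38 ± 0.53), *Hemgn* (-0.52 ± 0.63), *Rhag* (-0.35 ± 0.68), *Ermap* (-0.44 ± 0.56) and *Epor* (-0.65 ± 1.02) were on the other side of 0. With single libraries left out, the differences of all members but *Alas2* changed sign, while *Alas2* ran from 0.50 to 1.28. Without Scx-/- spleen 1, *Klf1* was lower in Scx-/- mice by -2.82 (adjusted p = 0.0030), *Hemgn* by -2.56 (0.0032) and *Ermap* by -2.72 (0.023), while without Scx-/- spleen 2 all 3 were at 0.011 to 0.11 on the log2 scale. Leaving out Scx-/- spleen 1 also raised the count over all genes, to 39 of 13517 (0.289%). Of the wider lists, 0 genes were called in spleen with all libraries. The 12 proliferation genes all had a log2 difference below 0 with a median of -0.72, against -0.18 over all genes.

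The interaction of genotype and tissue over spleen and bone was not past the threshold for any member, nor for any of 15424 genes (0%), of which 938 had an unadjusted p under 0.05; DESeq2 gave 0 as well. *Alas2* had an interaction of -1.79 ± 0.83 (adjusted p = 0.78), *Klf1* of -2.46 ± 1.19 (adjusted p = 0.80) and *Slc4a1* of -1.33 ± 0.83 (adjusted p = 0.90). For each, the log2 difference of Scx-/- from wild-type mice was lower in spleen than in bone.

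The mean of *Alas2* was higher in Scx-/- libraries in 13 of 16 tissues and lower in 3, and that of *Slc4a1* higher in 11 and lower in 5. The other 5 members had equal means in 4 to 7 tissues each, so their counts cannot be ranked against these; *Klf1* was higher in 7 and lower in 4, *Hemgn* in 7 and 5, *Ermap* in 7 and 3, *Epor* in 5 and 4 and *Rhag* in 4 and 5. None of these counts of tissues was set against all genes, and the labels do not tell which tissues came from the same mouse. In heart, counted as higher, wild-type heart 2 had no *Alas2* count among 11244. On pooled counts the ratio of Scx-/- to wild-type *Alas2* was 0.955 in heart and 0.492 in rectum, also counted as higher. It was 1.00 in liver, counted as lower. In lung *Alas2* was at 678, 621 and 996 CPM in wild-type and 1496, 1851 and 913 in Scx-/- mice, a log2 difference of 1.18 ± 0.41 (adjusted p = 0.74) whose groups overlapped. It was 0.99 without wild-type lung 2 and 0.82 without Scx-/- lung 2, both short of the study's thresholds. In muscle it was at 0, 18.4 and 19.0 CPM against 265, 41.4 and 49.6, a difference of 3.03 ± 0.91 (adjusted p = 0.34), while 7 of 14532 genes were called (0.0482%). Without wild-type muscle 1, which held 30409 counts, the adjusted p was 0.0017, but the calls over all genes also rose, to 59 of 14421 (0.409%). Without Scx-/- muscle 1 the difference was 1.64 and missed the study's thresholds. In stomach 3 counts in the 3 wild-type libraries stood against 113 in the Scx-/- libraries, 91 of them in 1 library, a pooled ratio of 29.4 with a counting interval of 9.81 to 145, and the fitted difference was 4.58 ± 1.39 (adjusted p = 0.46). Without that library, Scx-/- stomach 1, it was 3.44 and missed those thresholds (edgeR, unadjusted p = 0.15), and it was 7.76 without wild-type stomach 1. In cartilage the difference of 1.46 ± 0.55 (adjusted p = 0.77) was 0.34 without Scx-/- cartilage 3 and 1.96 without Scx-/- cartilage 1, the library with *Scx* counts.

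Globins are given beside these values. They took 2.81 to 6.10% of the counts in wild-type and 5.90 to 11.2% in Scx-/- lung, 0.126 to 0.618% and 0.375 to 2.06% in muscle, and 0.0640 to 0.662% and 0.244 to 0.945% in stomach. In cartilage the globin sum was 8190, 5201 and 20136 CPM in wild-type and 3879, 30878 and 63029 in Scx-/- libraries, and neutrophil genes summed to 395, 1020 and 1052 against 62.0, 4047 and 6387 CPM, with Scx-/- cartilage 1 lowest and Scx-/- cartilage 3 highest in both. The 5 rarer genes had no count in muscle. The part of blood in the tissue was not tested. The remaining pair past the study's thresholds, *Klf1* in intestine, came from 6 counts in 1 library.

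Over the 32 groups of tissue and genotype, the members were compared with one another on mean log2(CPM + 1). The Pearson correlation was 0.93 between *Klf1* and *Hemgn* and 0.93 between *Klf1* and *Rhag*. Among the 6 members other than *Alas2* it ran from 0.69 (*Epor* and *Hemgn*) to 0.93, and *Alas2* had 0.48 to 0.70 with those 6. Of 17412 genes, those most like the mean of the members included *Nfe2* (0.934), *Prg2* (0.930), *Kel* (0.926), *Ctsg* (0.922), *Elane* (0.920), *Vpreb3* (0.917), *Camp* (0.909) and *Epb42* (0.905). *Nfe2*, *Kel* and *Epb42* are erythroid, whereas *Prg2*, *Ctsg*, *Elane* and *Camp* encode granule proteins of eosinophils and neutrophils, and *Vpreb3* belongs to early B cells. *Kel*, a blood group protease, was at 225 ± 189 CPM in spleen, 122 ± 107 in bone and 0 in lung and vascular, and *Elane* at 23.9 ± 42.3 in spleen, 43.2 ± 59.1 in bone and 0 in lung and vascular.

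For single members the nearest genes differed. *Alas2* was most like *Hbb-b1* (0.910), *Hbb-b2* (0.882) and *Hba-a1* (0.876), all globins. *Klf1* was most like *Kel* (0.927), *Cldn13* (0.921) and *Ctsg* (0.917), *Hemgn* like *Ctsg* (0.942), *Elane* (0.914) and *Kel* (0.913), and *Rhag* like *Elane* (0.922) and *Kel* (0.922) among others. *Ermap* had *Nfe2* (0.885), *Prg2* (0.881) and *Gata1* (0.880), *Epor* had *Hbq1b* (0.866), *Prtn3* (0.848) and *Prg2* (0.828), and *Slc4a1* had *Ngp* (0.873), *Prg2* (0.848) and *Camp* (0.840). These correlations describe 32 means that share libraries and a set of tissues low in all these genes.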

How the data were processed

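The 96 bulk RNA libraries, made with Nextera XT and sequenced on an Illumina platform, covered 16 tissues and both genotypes. The deposited values are raw counts per gene symbol, which the authors made with Bowtie2 against mm10 and HTSeq; versions, annotation and strand setting: not given in the sources used here. The libraries are described as 3′-enriched in one source and as Smart-seq2 based in another. No column was left unmapped, and samples were grouped by tissue and genotype from the labels. The members and lists were chosen with earlier results of these data known, and the rule for other named genes took the 2 most abundant genes of each list in spleen and bone, any list gene called for genotype there, and the 10 genes most like the members (3 for each single member); some of these are not reported here. *Zfpm1* and *Sptb*, outside that rule, were named after their values were seen.

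CPM used library totals. Differences were tested with edgeR 4.0.16 in R 4.3.3 (TMM, glmQLFit with robust estimation, Benjamini-Hochberg), after genes at 0 in all libraries of the fit were removed, and the SE is the log2 difference over the square root of F. DESeq2 1.42.0, other scalings, a filter on low counts, a replicate block and leaving out each library were alternatives. The scripts were tested on simulated data. The lowest chi-square per degree of freedom between replicates was 6.93, so none was a copy. Coordinates are from GENCODE M21, and promoters from the RefSeq table of GRCm38.p6.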

Additional observations from a re-analysis of the deposited data

Results flagged for a closer look

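*Slc4a1* lay in opposite directions between genotypes in 2 tissues, with no overlap of the libraries in either. In bone every Scx-/- library was higher, with a mean of 1055 CPM in Scx-/- and 433 in wild-type mice. Of the 12344 genes tested in bone, 2.79% were separated in that direction. Of the 833 with at least 100 counts there, *Slc4a1* with 577 among them, 8.04% were. In hippocampus every Scx-/- library was lower, with a mean of 4.60 CPM, from 1, 4 and 1 counts against 5, 5 and 4 in the wild-type libraries. There 2.29% of 14117 genes were separated in that direction. The difference between the tissues was not tested. Neither difference was called at an adjusted p under 0.05.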

How the results depend on the processing

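Leaving out 1 library at a time, the number of member calls between genotypes ran from 0 to 3, with 1 call without wild-type bone 1, Scx-/- bone 3 or wild-type muscle 1 and 3 without Scx-/- spleen 1; at the study's thresholds it ran from 6 to 12 against 7. Spleen against bone ran from 2 to 3 calls, spleen against liver from 6 to 7, bone against liver from 4 to 6, and the interaction was 0 each time. Without Scx-/- spleens 2 and 3, picked for low member levels, spleen against bone gave 5 calls (549 of 14988 over all genes). Single log2 differences were followed for genotype in spleen and in bone, for the tissue comparisons and for the interaction, so muscle is outside this tally. They kept their direction and side of the threshold in 643 cases, with 19 reversed, 7 newly called and 22 no longer called. In spleen, the genotype differences crossed 0 as 1 library was left out: *Klf1* ran from -2.82 to 0.11, *Hemgn* from -2.56 to 0.040, *Ermap* from -2.72 to 0.067, *Rhag* from -1.78 to 0.098, *Epor* from -2.33 to 0.37 and *Slc4a1* from -1.06 to 0.50. *Slc4a1* also went to -0.0888 on library totals and -0.26 with the replicate block. *Rhag* in spleen against bone ran from -0.23 to 1.31 and went to -0.0042 with RLE scaling, -0.017 on library totals and -0.017 with DESeq2. The cause was not tested. With the replicate number as a block, the calls were 0 between genotypes, 7 at the study's thresholds, 2 in spleen against bone, 7 and 5 against liver and 0 in the interaction; the numbers mark no shared origin in the labels, and 0 of 48 same-number pairs correlated above 0.1. *Epor*, *Rhag* and *Ermap* had the fewest counts of the members, 219, 459 and 767 in the 96 libraries.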
